A study of Homo sapiens with 3 samples.

Results

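Genes of the NRF2 antioxidant response and of the metallothionein family were followed in HCT116, a human colorectal carcinoma cell line, after depletion of UHRF1. The list held 35 gene symbols, chosen for their known roles but with earlier results of these data known. Every probe set that the platform annotation assigns to exactly 1 of them was used. This gave 69 probe sets for 34 genes, out of 19775 genes on the array; FTH1, the ferritin heavy chain, is not analysed here. There were 3 arrays, 1 each for UHRF1 hairpin 2, UHRF1 hairpin 5 and a scrambled short hairpin RNA as control. All 3 populations received their hairpin by lentivirus and were collected after 6 days in puromycin, so the control shares the virus and the drug. Since the labels give both hairpins the same source, they stand here as 2 replicates of depletion; the labels do not say that the cultures were separate, and effects of a hairpin, a culture and an array cannot be told apart.

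Values are log2 levels for single-colour arrays, a difference is hairpin minus control on the log2 scale, and precision is limited by having only 3 arrays. Each gene stands by its brightest probe set over the arrays, and genes with a mean of at least 3.285 (the 40th percentile) were tested, 11865 in all and 30 of the 34 members. The members below that level were MT1M, GPX2, AKR1B10 and AKR1C3; EPHX1 passed it only through the hairpin arrays. UHRF1 read 6.20 with hairpin 2 and 6.67 with hairpin 5, against 8.54 in the control. Of the epithelial markers, 11 of 14 lay at the tested level, while VIL1, GPA33 and LGALS4 lay below it. Of the 11, 5 were higher with both hairpins (29.0% of all genes tested were), 2 lower (32.3% of all genes tested) and 4 mixed. EPCAM read 10.13 with hairpin 2, 9.93 with hairpin 5 and 10.23 in the control, KRT8 read 10.54, 10.99 and 10.13 in the same order, and KRT20 reached the tested level only through hairpin 2 (5.62, 2.64 and 2.77). Of the leukocyte markers, 1 of 9 lay at the tested level (CD3D, at most 3.48), and of the fibroblast and endothelial markers 3 of 10. These 3 were COL1A1, PDGFRB (at most 3.92) and PECAM1 (at most 3.60). COL1A1 read 6.39 with hairpin 2, 5.75 with hairpin 5 and 5.82 in the control. CD3D reached the tested level only through the hairpin arrays. The hairpins differed in their spread over all genes: 3.14% of genes were at least 1.5-fold lower than the control with hairpin 2 and 9.79% with hairpin 5, while 5.93% were at least 1.5-fold higher with hairpin 2 and 2.84% with hairpin 5.

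NRF2 (gene NFE2L2) is a transcription factor that KEAP1 holds in the cytoplasm and hands to a ubiquitin ligase. Oxidants and electrophiles modify KEAP1, NRF2 then accumulates, pairs with a small MAF protein and binds antioxidant response elements at genes for glutathione synthesis, thioredoxin reduction, NADPH supply and detoxification. Metallothioneins are small cysteine-rich proteins that bind zinc, copper and cadmium, and their genes are switched on by the zinc-sensing factor MTF1 through metal response elements. Intestinal epithelium meets both metals and reactive compounds from the gut lumen and expresses both sets of genes.

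Differences across the members were small. None of the 30 tested members was at least 2-fold lower than the control with both hairpins, where 0.278% of all genes tested were, and none was at least 2-fold higher with both, where 0.101% of all genes were. By direction alone, 16 of 30 were lower with both hairpins (53.3%, against 32.3% of all genes), 9 were higher with both (30.0%, against 29.0%) and 5 were mixed. Direction was counted without a margin, so GCLC, at −0.009 with hairpin 2, is among the 16. Of the 16, 6 were metallothioneins on probe sets that can match several genes, so they do not count independently. Among the 841 genes with a mean of at least 9.13, a level that many members reach, 42.6% were lower with both. EPHX1, counted among the 9, passed the tested level only through the hairpin arrays. The median difference of the tested members was −0.04 with hairpin 2 and −0.20 with hairpin 5, beside 0.03 and −0.06 for all genes tested. In limma with Benjamini-Hochberg adjustment over all genes, 0 members passed (0% of all genes did), and every tested member had adjusted p = 0.999. At an unadjusted p under 0.05 there was 1 member, HMOX1 (2.33% of all genes). That test has 1 residual degree of freedom per gene and takes the spread of the hairpin arrays to hold for the single control too, and an exact permutation test of 3 arrays cannot go below p = 0.333.

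**Figure D1:**
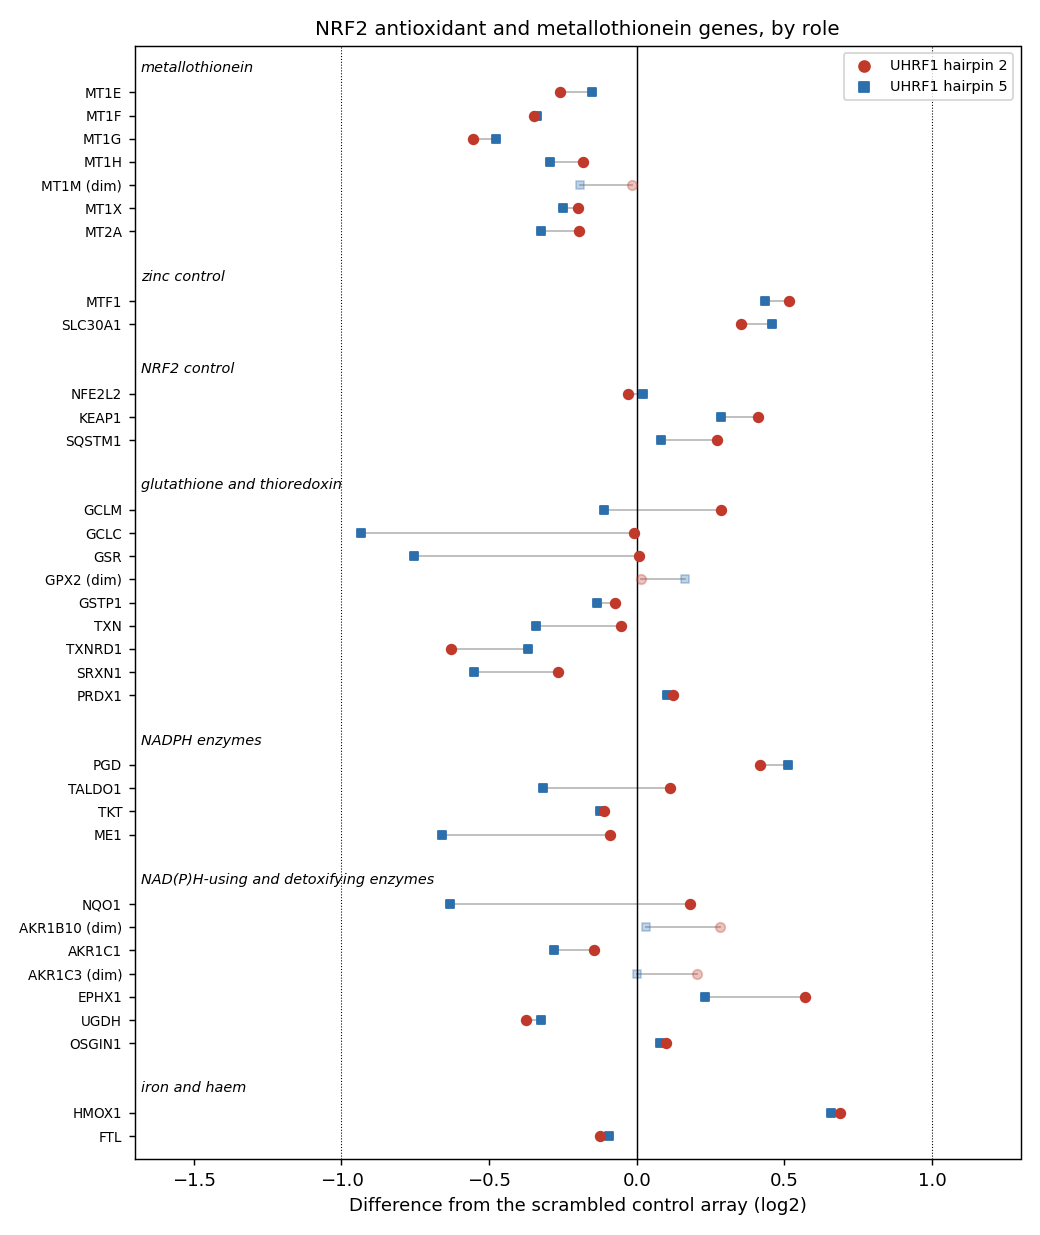
Differences from the scrambled control array (log2, x axis) for the 34 member genes in rows by role, with hairpin 2 as red circles and hairpin 5 as blue squares; faded genes marked dim lay below the tested level and dotted lines mark a 2-fold difference. The 6 tested MT1 and MT2A genes lie left of 0 with both hairpins, no tested member lies beyond a dotted line, and GCLC, GSR, ME1 and NQO1 lie furthest left with hairpin 5.

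The metallothioneins were lower than in the control with both hairpins, by a small margin. All 6 tested MT1 and MT2A genes were lower on both hairpin arrays, by 1.14-fold to 1.47-fold with hairpin 2 and by 1.11-fold to 1.39-fold with hairpin 5. MT1G read 8.92 with hairpin 2 and 8.999 with hairpin 5, against 9.48 in the control, a mean difference of −0.52 ± 0.06 (SD, n = 2 hairpins). MT1F read 10.19 and 10.20 with hairpins 2 and 5, against 10.54 in the control, with a mean difference of −0.34 ± 0.01 (SD, n = 2 hairpins). Both hairpin arrays sat together below the control for these genes. MT2A, the main metallothionein of many human tissues, read 12.10 and 11.97 with hairpins 2 and 5, against 12.30 in the control. MT1X read 11.26 and 11.21 with hairpins 2 and 5, against 11.46 in the control. MT1E read 11.47 and 11.58, against 11.73, and MT1H read 9.73 and 9.62, against 9.92. For these last 4 genes the differences ran from −0.15 to −0.32. MT3, which is not on the list of members, differed by −0.11 and −0.06 at a level of at most 3.54. MT1M lay near the bottom of the array's range, at 2.51 with hairpin 2, 2.33 with hairpin 5 and 2.52 in the control.

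How far the family members were measured separately is limited by the probes. Of 11 metallothionein probe sets, 9 have names ending in _x_at, which marks probes that can match transcripts of several genes. Of these 9, 8 were lower with both hairpins and 1, a second MT1F probe set (213629_x_at), was level, at 7.75 with hairpin 2, 7.72 with hairpin 5 and 7.75 in the control. The second MT1E probe set (216336_x_at) differed by −0.09 with hairpin 2 and −0.02 with hairpin 5. The MT1G probe set without that ending (210472_at) read only 2.56 with hairpin 2, 2.82 with hairpin 5 and 2.68 in the control, so the MT1G difference rests on 204745_x_at. The family is therefore not 6 independent measurements. Among the 841 genes with a mean of at least 9.13, the mean of the dimmest tested metallothionein, 42.6% were lower with both hairpins and the median differences were −0.02 with hairpin 2 and −0.06 with hairpin 5. For the metallothionein genes, MT1M included, they were −0.20 and −0.30.

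**Figure D2:**
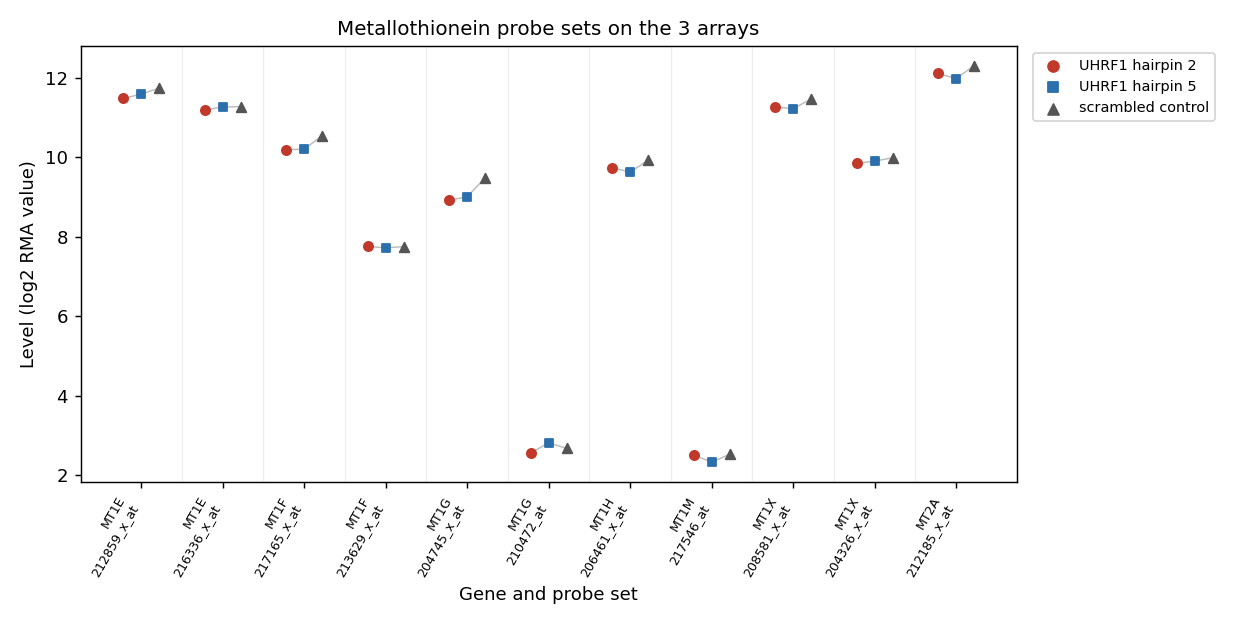
Level of each metallothionein probe set (log2 RMA value, y axis) with hairpin 2 (red circle), hairpin 5 (blue square) and the scrambled control (grey triangle); the grey line joins values of the same probe set. In the brightest probe set of each of the 6 tested genes both hairpin values lie under the control, and the 2 probe sets without the _x_at ending lie below 3.

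Because the metallothioneins lay on the same side of the control, their upstream sequences are shown, with matches to the core of the metal response element in capitals. RefSeq windows of GRCh38.p14 were given for 3 of the 7 metallothioneins, and the 250 bases before each start are printed 5′ to 3′ on the gene's strand. The motif was searched as TGCACNC and TGCGCNC on both strands; matches on the opposite strand therefore read in reverse complement. MT2A lies at chr16:56608334-56608583 (+), MT1X at chr16:56682220-56682469 (+) and MT1H at chr16:56669564-56669813 (+).
MT2A: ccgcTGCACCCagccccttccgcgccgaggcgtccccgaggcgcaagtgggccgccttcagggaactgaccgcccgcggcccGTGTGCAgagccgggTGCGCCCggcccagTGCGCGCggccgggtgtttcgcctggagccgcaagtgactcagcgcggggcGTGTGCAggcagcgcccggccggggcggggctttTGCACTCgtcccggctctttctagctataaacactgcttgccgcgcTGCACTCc
MT1X: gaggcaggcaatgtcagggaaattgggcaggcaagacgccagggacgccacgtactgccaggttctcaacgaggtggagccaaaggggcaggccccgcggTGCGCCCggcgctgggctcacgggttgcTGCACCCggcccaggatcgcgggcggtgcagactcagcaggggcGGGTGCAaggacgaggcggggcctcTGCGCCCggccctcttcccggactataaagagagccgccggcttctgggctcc
MT1H: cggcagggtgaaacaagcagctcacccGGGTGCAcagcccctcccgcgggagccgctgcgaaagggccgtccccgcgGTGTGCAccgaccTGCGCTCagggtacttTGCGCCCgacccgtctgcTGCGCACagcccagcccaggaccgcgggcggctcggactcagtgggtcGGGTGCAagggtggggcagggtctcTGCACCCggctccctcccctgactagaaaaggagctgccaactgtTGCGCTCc
MT2A held 7 matches, MT1X 4 and MT1H 8, and no match overlapped another. Of all 35116 RefSeq windows of this length, 24.8% held at least 1 match, 1.58% at least 3 and 0.37% at least 4. A match describes the letters and does not show that a factor binds there.

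The genes that control zinc lay on the other side of the control. MTF1, the factor that activates metallothionein genes, read 6.80 with hairpin 2 and 6.72 with hairpin 5, against 6.28 in the control, a mean difference of 0.48 ± 0.06 (SD, n = 2 hairpins). Its other probe sets did not follow: 205323_s_at differed by −0.30 and −0.34, and 205322_s_at by 0.32 and −0.20. SLC30A1, which exports zinc across the plasma membrane and is itself a target of MTF1, read 5.95 and 6.06 with hairpins 2 and 5, against 5.60 in the control. Its mean difference was 0.41 ± 0.07 (SD, n = 2 hairpins), and its other probe sets, at levels near or below the tested one, differed by 0.59 and 0.16 (228181_at) and by 0.03 and 0.37 (242716_at). Both genes thus lay above the control on their brightest probe set. Neither passed limma (adjusted p = 0.999). Beside the counts of other pathway genes, here and below, stand 32.3% of all genes lower and 29.0% higher with both hairpins. Of the 20 other zinc genes tested, MT3 and the zinc carriers of the SLC30 and SLC39 families, 10 were mixed, 6 were lower and 4 were higher with both hairpins. The zinc importer SLC39A10 differed by −0.62 with hairpin 2 and −0.51 with hairpin 5. SLC30A5 and SLC30A7, which load zinc into the secretory pathway, differed by −0.30 and −0.91 and by −0.24 and −0.21. Ranked on whichever hairpin lay nearer the control, the highest were SLC30A4 (0.30 and 0.15), SLC39A4, an intestinal zinc importer (0.10 and 0.21), and SLC39A14 (0.15 and 0.04).

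The transcript of NRF2 itself was level. NFE2L2 read 8.27 with hairpin 2 and 8.32 with hairpin 5, against 8.30 in the control. KEAP1, its repressor, read 7.64 with hairpin 2 and 7.52 with hairpin 5, against 7.23 in the control, a mean difference of 0.35 ± 0.09 (SD, n = 2 hairpins). SQSTM1, an autophagy receptor that can sequester KEAP1, was 0.27 higher with hairpin 2 and 0.08 higher with hairpin 5 on its brightest probe set (201471_s_at), but another (213112_s_at) differed by −0.32 and −0.54. NRF2 is regulated mainly through protein stability, which these arrays do not measure.

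Partners and relatives of NRF2 were more varied. Of 9 other genes of NRF2 control tested, 3 were lower and 2 higher with both hairpins. NFE2L1, a related factor that activates proteasome genes, read 8.92 with hairpin 2 and 8.78 with hairpin 5, against 8.24 in the control, and NFE2L3, another relative, differed by 0.34 and 0.36. MAFF, a small MAF protein, read 7.23 with hairpin 2 and 6.43 with hairpin 5, against 7.60 in the control, so that hairpin 5 lay furthest from the control. CUL3, the scaffold of the ligase that KEAP1 serves, differed by −0.09 and −0.03, and BTRC, part of the ligase that recognises NRF2 phosphorylated by GSK3B, by −0.16 and −0.01.

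Among glutathione and thioredoxin genes, GCLC and GSR lay well below the control with hairpin 5 and level with it with hairpin 2. Of 8 tested members, 5 were lower than the control with hairpin 2 and 7 with hairpin 5, and the median differences were −0.03 with hairpin 2 and −0.36 with hairpin 5. Over all 30 tested members 17 were lower with hairpin 2 (46.1% of all genes were) and 20 with hairpin 5 (57.0% of all genes were). GCLC, the catalytic subunit of the enzyme that limits glutathione synthesis, read 7.42 with hairpin 2 and 6.50 with hairpin 5, against 7.43 in the control, which was 1.91-fold lower with hairpin 5. A second GCLC probe set (202922_at) read 6.13 and 5.30, against 6.37, and another (1555330_at) lay below 3 on each array. GSR, which regenerates reduced glutathione with NADPH, read 7.96 with hairpin 2 and 7.19 with hairpin 5, against 7.95 in the control. Its second probe set (205770_at) read 6.94 and 6.13, against 6.78. Thus both bright probe sets of GCLC and both of GSR set hairpin 5 apart from the other arrays.

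GCLM, the modifier subunit that pairs with GCLC, was mixed on its brightest probe set, at 7.18 with hairpin 2 and 6.79 with hairpin 5, against 6.90 in the control. A second GCLM probe set (234986_at) was higher with both hairpins, by 0.34 and 0.25. The thioredoxin genes varied. TXNRD1, the cytosolic thioredoxin reductase, read 9.60 with hairpin 2 and 9.86 with hairpin 5, against 10.23 in the control, a mean difference of −0.50 ± 0.18 (SD, n = 2 hairpins). SRXN1, which repairs overoxidised peroxiredoxins, read 7.64 and 7.36, against 7.91. For both genes the hairpin arrays lay below the control, TXNRD1 lowest with hairpin 2 and SRXN1 with hairpin 5. Thioredoxin itself, TXN, differed by −0.05 and −0.34 on its brightest probe set (208864_s_at), while a dimmer one (216609_at) was higher with both hairpins, by 0.12 and 0.11. The peroxide reductase PRDX1 was 0.12 and 0.10 higher. GSTP1, a glutathione transferase, differed by −0.07 and −0.14. GPX2, the glutathione peroxidase of the gut epithelium, lay below the tested level, at 2.73 with hairpin 2, 2.88 with hairpin 5 and 2.71 in the control.

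Of 26 other glutathione and thioredoxin genes tested, 12 were lower and 5 higher with both hairpins. SLC7A11, the cystine importer that feeds glutathione synthesis and a target of both NRF2 and ATF4, read 6.88 with hairpin 2 and 6.15 with hairpin 5, against 7.66 in the control. These are folds of 1.71 (hairpin 2) and 2.84 (hairpin 5) below the control, the second further from the control than any member on the hairpin 5 array. SOD2, the mitochondrial superoxide dismutase, read 3.73 with hairpin 2 and 3.35 with hairpin 5, against 4.09 in the control, a level near background. PRDX4, the peroxiredoxin of the endoplasmic reticulum, differed by −0.32 and −0.36. By the same measure, the highest were GLRX, a glutaredoxin (0.38 and 0.33), PRDX3, the mitochondrial peroxiredoxin (0.20 and 0.35), and GGT1 (0.33 and 0.15). None of the 86 genes tested on the wider lists passed limma, and neither did any other gene tested.

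**Figure D3:**
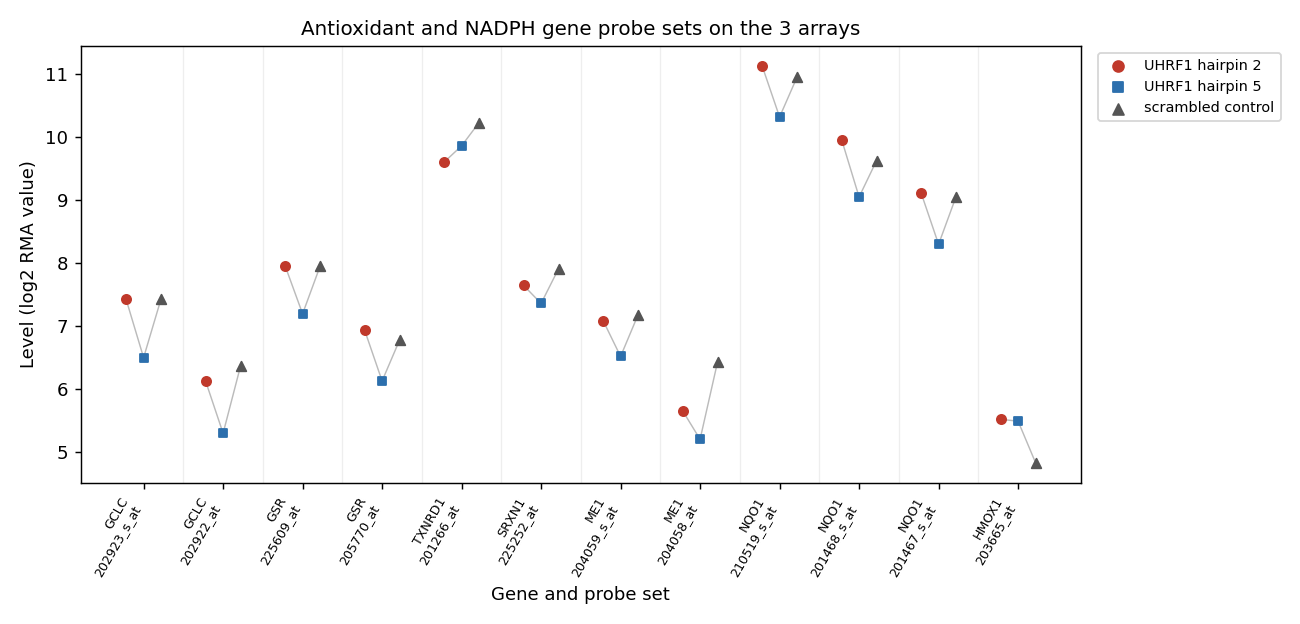
Level (log2 RMA value, y axis) of the probe sets of GCLC, GSR, TXNRD1, SRXN1, ME1, NQO1 and HMOX1 whose mean is at least 4, with hairpin 2 (red circle), hairpin 5 (blue square) and the scrambled control (grey triangle). For GCLC, GSR and NQO1 the hairpin 5 value lies lowest in every probe set shown, and for HMOX1 both hairpin values lie above the control.

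The NADPH enzymes showed no shared direction. PGD, the decarboxylating dehydrogenase of the pentose phosphate pathway, read 7.61 with hairpin 2 and 7.71 with hairpin 5, against 7.20 in the control, a mean difference of 0.47 ± 0.07 (SD, n = 2 hairpins). ME1, the cytosolic malic enzyme, read 7.09 with hairpin 2 and 6.52 with hairpin 5, against 7.18 in the control, and its second probe set (204058_at) read 5.66 and 5.20, against 6.43. On that second probe set ME1 was lower with both hairpins, by 0.77 with hairpin 2 and by 1.23 with hairpin 5. In the non-oxidative branch, TALDO1 differed by 0.11 and −0.32. TKT differed by −0.11 and −0.12 on its brightest probe set (208700_s_at), while 208699_x_at was 0.24 and 0.48 higher, so its direction depends on the probe set. Of 8 other NADPH genes tested, 3 were lower and 1 higher with both hairpins. RPIA and RPE, which interconvert pentose phosphates, read 7.31 and 7.41 against 8.20 in the control for RPIA, and 6.86 and 6.69 against 7.24 for RPE. RPIA thus lay below the control by folds of 1.86 (hairpin 2) and 1.74 (hairpin 5). ME2, a mitochondrial malic enzyme, differed by −0.47 and −0.25, and ME3, another, by 0.27 and 0.36.

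NQO1, the quinone reductase often read as a marker of NRF2 activity, lay below the control with hairpin 5 and above it with hairpin 2. It read 11.13 with hairpin 2 and 10.31 with hairpin 5, against 10.95 in the control, a 1.13-fold higher level for hairpin 2 but a 1.55-fold lower level for hairpin 5. The other NQO1 probe sets read 9.96 and 9.05, against 9.62 (201468_s_at), and 9.11 and 8.30, against 9.05 (201467_s_at). All 3 probe sets placed hairpin 5 lowest and hairpin 2 highest. UGDH, which makes UDP-glucuronic acid for conjugation, differed by −0.38 and −0.32. OSGIN1, a stress-induced growth regulator, differed by 0.10 and 0.08. EPHX1, the microsomal epoxide hydrolase, read 3.67 and 3.33, against 3.10, near the tested level. The aldo-keto reductases were at or near the bottom of the range: AKR1C1 read 3.53 with hairpin 2, 3.39 with hairpin 5 and 3.67 in the control, AKR1B10 read 3.11, 2.86 and 2.83, and AKR1C3 read 2.66, 2.46 and 2.46. Differences at such levels may be background.

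The members at least 1.5-fold lower with hairpin 5 were GCLC, GSR, ME1 and NQO1, 4 of 30 or 13.3%, beside 9.79% of all genes. With hairpin 2 the only one was TXNRD1, 1 of 30 or 3.33%, beside 3.14% of all genes. None was at least 1.5-fold lower with both on its brightest probe set, where 1.59% of all genes were; the second ME1 probe set (204058_at) was, by folds of 1.71 and 2.34. Set directly against hairpin 2, hairpin 5 was at least 1.5-fold lower for GCLC, GSR and NQO1, 10.0% of tested members, beside 12.1% of all genes. These shares are near those of all genes, so they do not set the members apart. No member was at least 1.5-fold higher with hairpin 5 than with hairpin 2, where 2.65% of all genes were.

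Of 11 other detoxification genes tested, 8 were lower and 2 higher with both hairpins, beside 32.3% and 29.0% of all genes. ABCC2, the pump that exports glutathione and glucuronide conjugates, stood furthest out: it read 6.51 with hairpin 2 and 6.35 with hairpin 5, against 4.74 in the control, a mean of 3.22-fold higher. It was the only gene of the wider lists at least 2-fold higher with both hairpins, and it did not pass limma (adjusted p = 0.999). The related pump ABCC1 differed by −0.21 and −0.32. CBR3, a carbonyl reductase, differed by −0.42 and −0.53, and the aldehyde dehydrogenase ALDH3A2 by −0.25 and −0.41, while ALDH3A1 lay at 0.08 and 0.01. Thus ABCC2 lay above the control while CBR3, ALDH3A2 and ABCC1 lay below it.

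HMOX1, which degrades haem and releases iron, was the member furthest above the control. It read 5.52 with hairpin 2 and 5.49 with hairpin 5, against 4.83 in the control, a mean difference of 0.67 ± 0.02 (SD, n = 2 hairpins). These are folds of 1.61 (hairpin 2) and 1.58 (hairpin 5) above the control, and it was the 1 member at least 1.5-fold higher with both (0.759% of all genes). Among all genes tested its difference stood at percentile 96.1 with hairpin 2 and 98.4 with hairpin 5; it has only 1 probe set. The ferritin light chain, FTL, differed by −0.13 and −0.09, and its second probe set (213187_x_at) by −0.20 and −0.27. Of 12 other iron and haem genes tested, 8 were mixed, 2 were lower and 2 were higher with both hairpins. SLC11A2, an importer of ferrous iron, differed by 0.55 and 0.50, and NCOA4, the receptor that delivers ferritin to autophagy, by 0.27 and 0.13. ACO1, whose protein also binds iron-responsive elements, differed by −0.54 and −0.25. FBXL5, an iron sensor of a ubiquitin ligase, read 5.37 with hairpin 2 and 3.96 with hairpin 5, against 5.37 in the control. FBXL5 is counted as lower with both hairpins, though its hairpin 2 difference was only −0.002.

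**Figure D4:**
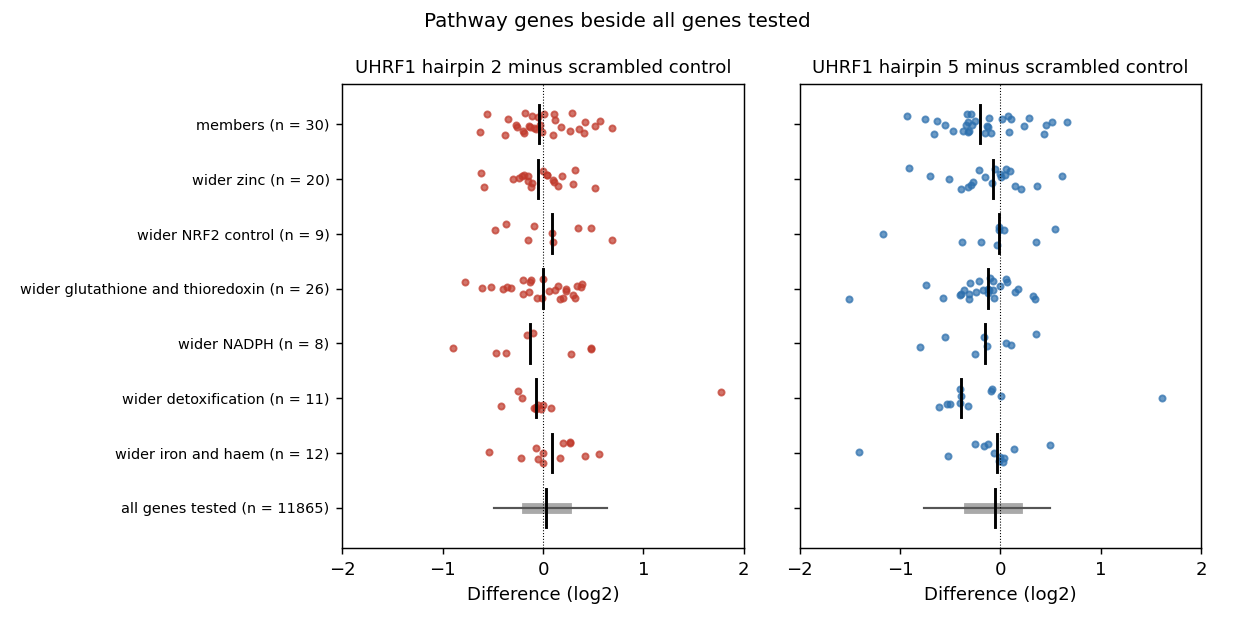
Differences from the scrambled control (log2, x axis) with hairpin 2 (left, red) and hairpin 5 (right, blue) for tested members, each wider list and all genes tested; each point is a gene, black ticks are medians, and for all genes the thick bar spans the 25th to 75th and the thin line the 5th to 95th percentile. The median of all genes is 0.03 with hairpin 2 and −0.06 with hairpin 5, and ABCC2 is the isolated point of the detoxification list at 1.77 and 1.61.

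Over the wider lists together, 34 of 86 tested genes were lower with both hairpins (39.5%, against 32.3% of all genes) and 16 were higher with both (18.6%, against 29.0%). Both hairpins are set against the same control array, so a deviation of that array moves both differences of a gene together, and its part in these counts was not tested.

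To describe the members in sequence, the same 250 bases were searched for the core of the antioxidant response element, TGACNNNGC, on both strands. RefSeq windows were used for 26 of the 35 listed genes, 34 windows in all since several genes have more than 1 start. Member windows on 1 chromosome were left out before this count, though the share over all windows keeps that chromosome. No GSR window was used. A match was present in 12 of the 34 member windows, belonging to 11 genes, and in 10.9% of all windows. In glutathione, thioredoxin and NADPH metabolism, PGD, GPX2 and the second TXNRD1 start also held a match but are not printed. Stretches of 41 bases around the match, in capitals, are printed for some members of these groups, picked by hand, that differ in their values above: GCLM at chr1:93909440-93909480 (−), GSTP1 at chr11:67583730-67583770 (+), the first TXNRD1 start at chr12:104215664-104215704 (+) and ME1 at chr6:83431164-83431204 (−).
GCLM: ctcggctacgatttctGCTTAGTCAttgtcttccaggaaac
GSTP1: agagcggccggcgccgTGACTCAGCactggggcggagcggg
TXNRD1: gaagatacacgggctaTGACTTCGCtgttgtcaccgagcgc
ME1: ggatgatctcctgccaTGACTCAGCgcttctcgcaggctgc
GSTP1 and ME1 carry the same letters in the match. Any link between a match and the values of a gene was not tested. The windows of GCLC and NQO1 held no match, which says only that these letters are not in those windows.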

How the data were processed

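Gene expression was measured on 3 Affymetrix arrays. Per the submitters' processing notes, the authors used RMA and Affymetrix Expression Console to make the deposited log2 values; versions and settings are not given in the sources used here. Base 2 was taken from how far the values reach, and centring is not stated. RMA can compress folds of dim and very bright probes, and no detection calls were used.

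Of 54613 probe sets, 41091 had 1 gene, 1801 several and 11721 none in the platform annotation; 41037 matched RefSeq GRCh38.p14 by gene identifier, changing 0 symbols. The 2-sided test was limma 3.58.1 under R 4.3.3 (lmFit, then eBayes). UHRF1, the depleted gene, lay a mean of 4.33-fold below the control and did not pass it. A count of 0 members past limma therefore does not show that no member differed. Named genes were all members, UHRF1 and up to 3 genes each way per wider list, ranked by the smaller hairpin difference. The members and lists were chosen with earlier results of these data known. Single-hairpin and 1.5-fold counts between hairpins, and the bright-gene background, were added after seeing the data. Alternatives were other filters, probe set choices, scalings, priors and thresholds.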

Additional observations from a re-analysis of the deposited data

How the results depend on the processing

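No setting tried brought a member past limma at an adjusted p of 0.05 (or 0.1) or to a 2-fold difference with both hairpins; at 1.5-fold the higher count was 1 (HMOX1) and the lower count 0. The number of members lower with both hairpins was 16 of 30, but 8 of 22 tested without _x_at probe sets and 6 of 21 without _x_at, _s_at or _a_at probe sets, settings that remove the bright metallothionein probe sets. With the hairpins averaged, the median metallothionein difference was −0.25, against −0.18 when all probe sets per gene were averaged and −0.046 under either probe set exclusion. The zinc control median of 0.44 became 0.20 with the mean of probe sets, 0.43 with median centring and 0.45 with cyclic loess. The iron and haem median of 0.28 became 0.25, 0.27 and 0.31 under the same settings and 0.67 under either probe set exclusion, where HMOX1 is the only gene left. Single members moved by more than the SD between hairpins in 27 of 223 comparisons, 13 of them with the mean of probe sets. The 223 include 34 comparisons for each left-out hairpin, which could not count as moved. Dropping 1 of 2 values shifts their mean by no more than their SD. With the mean of probe sets, the mean difference of 5 of 34 members changed sign: SQSTM1 (−0.02), TKT (0.08), GCLM (−0.02), NFE2L2 (0.08) and AKR1C1 (0.00). Median centring changed the sign of 0 members and cyclic loess of 1, NFE2L2 (0.03). Without _x_at probe sets 2 changed sign, MT1G (0.01) and AKR1C1 (0.16), with _s_at and _a_at also removed 2, MT1G (0.01) and TXN (0.11), and on leaving out either hairpin 3. Leaving out hairpin 2 gave 20 members lower, and leaving out hairpin 5 gave 17. No paired analysis was possible because the control has only 1 array and replicate numbers follow accession order. With 1 control array, signal near background and shared probes limit what can be resolved.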
